A study of Mus musculus with 4 samples.

Results

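The collagen chain genes of the mouse heart were described, that is the genes whose symbol is Col, a type number, the letter a and a chain number. Of the 23282 genes listed, 44 carried such a symbol, and the 29 whose normalized read count averaged 4 or more over the libraries were described. The normalized read count is the linear form of the log2 value deposited by the authors. They comprised 8 fibrillar collagens, 7 basement membrane collagens and 14 other collagens, and of the 15 left out, 14 had reads and Col24a1 had none. At the limit, Col4a3 had a mean of 4.05 and was described, while Col20a1 had a mean of 3.70 and was not.

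Heart mRNA was sequenced from 4 groups of CDF1 mice, all with an age label of post natal day 28, which the methods of the study give, in weeks, as the age of the male mice at purchase. The normal control group E(−)T(−) neither exercised nor received tumor cells, and the normal exercise group E(+)T(−) ran on a treadmill at high intensity. The cancer control group E(−)T(+) received CT26 cells, a mouse colorectal cancer line, through the tail vein and did not exercise, and the cancer exercise group E(+)T(+) received the cells and ran. The tumor cells were thus spread through the blood rather than placed in the heart. For skeletal muscle the study describes 1 representative mouse per group, and for the heart a similar analysis. Whether a heart library held 1 heart or a pool is not stated in the sources used here. There was 1 library per group, so no difference below has a replicate check, no p-value is given, and exercise or cancer cannot be told apart from other differences between the hearts sequenced.

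Collagens are proteins of several chains wound around each other, and each gene here encodes a single kind of chain. Fibrillar collagens, above all types I and III in the heart, form the fibers that bear load between muscle cells, and fibroblasts are their main source. Basement membrane collagens, above all type IV, form sheets around muscle cells and vessels, and the remaining families form microfilaments, decorate fibers, build short-chain networks or cross the cell membrane.

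The 4 libraries held between 6595432 and 11545945 reads, recovered from the deposited log2 values. Globin genes took 37.3% of the reads of the cancer exercise heart and between 7.86% and 8.76% of the others. Cardiomyocyte markers, such as Myh6 and Tnnt2, all had reads in each library, 7 of 7, with summed normalized read counts between 253308 and 310887. Libraries were made by QuantSeq, which reads the 3′ end of a transcript, so a read count follows the number of transcripts and not their length. Calling a gene a DEG took a fold change of 2 or more and a normalized read count of 4 or more in either library. Intervals (95%, Clopper-Pearson) were computed for the ratio of recovered reads at the fitted library sizes. They treat each read as independent and cover counting error only. PCR copies are not independent molecules, so the intervals can be too narrow even for that error.

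Promoter windows are shown for 4 members that mark the patterns described below: Col3a1 and Col5a1 of the fibrillar class, Col15a1 of the basement membrane class, and Col6a5, whose counts spanned 17.3-fold, the widest range among members averaging 16 or more. All coordinates are in GRCm38 (mm10). Each window is the 250 bases before the RefSeq gene start, 5′ to 3′ on the strand of the gene. Capitals mark a TATAAA box or a GC box (GGGCGG) on either strand. The windows lie at chr1:45311288-45311537 (plus strand) for Col3a1, chr2:27886175-27886424 (plus strand) for Col5a1, chr4:47207762-47208011 (plus strand) for Col15a1 and chr9:105960644-105960893 (minus strand) for Col6a5, and none of them overlaps an annotated exon.
Col3a1: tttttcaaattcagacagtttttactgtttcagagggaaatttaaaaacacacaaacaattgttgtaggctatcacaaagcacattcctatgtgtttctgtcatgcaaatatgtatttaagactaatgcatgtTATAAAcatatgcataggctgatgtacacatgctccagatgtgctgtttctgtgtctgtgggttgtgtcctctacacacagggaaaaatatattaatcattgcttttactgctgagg
Col5a1: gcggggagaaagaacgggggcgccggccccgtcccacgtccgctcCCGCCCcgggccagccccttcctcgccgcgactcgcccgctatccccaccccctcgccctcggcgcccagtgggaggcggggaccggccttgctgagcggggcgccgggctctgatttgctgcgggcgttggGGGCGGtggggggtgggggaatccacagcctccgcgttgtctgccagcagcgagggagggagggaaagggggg
Col15a1: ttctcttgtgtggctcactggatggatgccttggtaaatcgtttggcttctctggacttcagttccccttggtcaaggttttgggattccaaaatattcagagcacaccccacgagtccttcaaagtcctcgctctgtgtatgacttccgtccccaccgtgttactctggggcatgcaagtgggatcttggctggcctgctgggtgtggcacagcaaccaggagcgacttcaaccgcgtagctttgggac
Col6a5: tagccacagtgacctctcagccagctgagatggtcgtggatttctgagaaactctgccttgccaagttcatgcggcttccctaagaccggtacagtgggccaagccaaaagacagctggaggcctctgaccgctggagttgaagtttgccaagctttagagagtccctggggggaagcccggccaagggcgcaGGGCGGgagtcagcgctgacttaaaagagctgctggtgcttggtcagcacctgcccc

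The windows of the 2 fibrillar genes differed in composition: 35.2% of the Col3a1 bases and 76.4% of the Col5a1 bases were G or C. Promoter sequences were found for 23 of the 29 members, and those of Col1a1, Col5a2, Col14a1, Col12a1, Col26a1 and Col4a3 are named only. A GC box was present in 15 of the 23 windows, or 65.2%, against 32.9% of the windows of all 27025 genes in the table. CCAAT (or ATTGG on the other strand) was present in 8 of 23, or 34.8%, against 34.5% of all windows. TATAAA (or TTTATA) was present in 2 of 23, Col3a1 and Col13a1, or 8.70%, against 13.0%. Each motif was counted on its own, although matches of CCAAT and of the GC box can share letters at their ends, and a match is a string of letters, not a shown binding site.

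Of the 29 members, 18 had their highest normalized read count in the cancer control heart, 7 in the normal exercise heart, 4 in the normal control heart and 0 in the cancer exercise heart. The lowest count lay in the cancer exercise heart for 23 of 29, in the normal control heart for 3, in the normal exercise heart for 3, and in the cancer control heart for 0. The same counts were not made over all genes, so these orders, also by class, cannot be set against those of other genes. Within the fibrillar class, the cancer control heart was highest for 6 of 8 genes and the cancer exercise heart lowest for 7 of 8, the exception being Col11a1, which had 0 reads in the normal control heart. Col11a1, Col26a1 and Col28a1, all among the 18, met the mean limit of 4 only through the cancer control heart. Their normalized read counts there were 26.1, 13.5 and 8.08. That they are high in that library is thus partly set by the selection and is no finding about them. Col4a3, highest in the normal control heart, had a mean of 4.05, and its count of 5.67 there helped lift it over the limit. Its place there is likewise partly set by the selection.

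**Figure D1:**
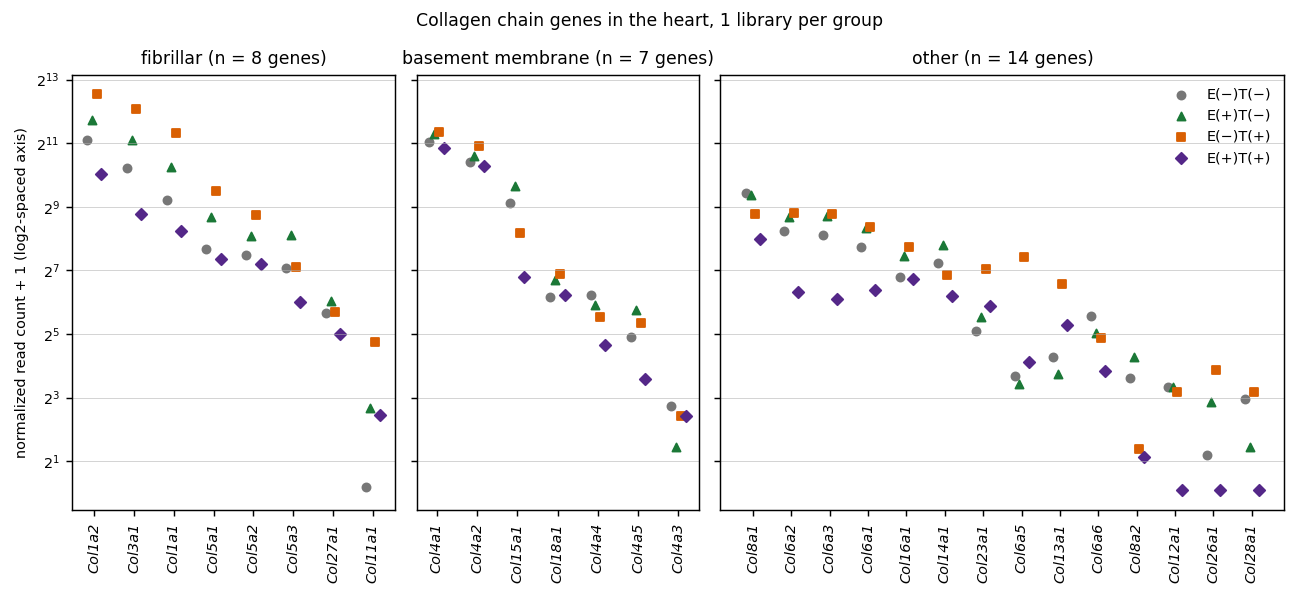
Normalized read count plus 1 (log2-spaced axis) of the 29 collagen chain genes in the 4 libraries, with 1 symbol per library and genes ordered by mean within the fibrillar, basement membrane and other classes. The squares of the cancer control heart are the highest symbol for 6 of 8 fibrillar genes, the diamonds of the cancer exercise heart are the lowest for 7 of 8, and the symbols of Col4a1 lie close together.

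The chains of type I and type III collagen carried most fibrillar reads. Col1a2, the second chain of type I (chr6:4504814-4541544), had normalized read counts of 2182 in the normal control heart, 3394 in the normal exercise heart, 5942 in the cancer control heart and 1048 in the cancer exercise heart. Col1a1, the main chain of type I (chr11:94936224-94953042), had 599, 1231, 2564 and 301 in the same order. Col3a1 (chr1:45311538-45349706), whose chain alone makes up type III, had 1202, 2180, 4359 and 440. All 3 genes stood in the same order of libraries, with the cancer control heart highest, then the normal exercise heart, then the normal control heart, then the cancer exercise heart. An annotated gene, Gm47302, overlaps exons of Col3a1 on the same strand, so reads there could have been counted for either.

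Type V collagen joins type I fibers and starts their assembly, and its 3 chain genes did not share 1 order. Col5a1 had normalized read counts of 204 in the normal control heart, 411 in the normal exercise heart, 721 in the cancer control heart and 162 in the cancer exercise heart, and Col5a2 had 178, 270, 424 and 148. Col5a3 had 133, 275, 138 and 63.6, so that it was highest in the normal exercise heart, and its counts in the cancer control heart and the normal control heart were close. Exons of 2810430I11Rik and Gm13372 overlap Col5a1 on the opposite strand.

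Col27a1 and Col11a1, fibrillar chains best known from cartilage, were at low levels. Col27a1 had normalized read counts of 49.3, 64.3, 51.2 and 30.7 in the normal control heart, the normal exercise heart, the cancer control heart and the cancer exercise heart. Col11a1 had 0, 6, 29 and 4 reads in the same order, so most of its reads came from the cancer control heart.

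In the basement membrane class, the 2 most abundant chains varied least. Col4a1 (chr8:11198423-11312826) had normalized read counts of 2093 in the normal control heart, 2479 in the normal exercise heart, 2609 in the cancer control heart and 1860 in the cancer exercise heart, and its highest count was 1.40-fold its lowest. Col4a2 (chr8:11312805-11449287), its partner chain in the common form of type IV, had 1351, 1555, 1911 and 1247, a range of 1.53-fold. These genes start head to head on opposite strands and share 22 bases at their starts, far from the 3′ ends that were sequenced. An exon of Gm15419 overlaps Col4a2 on the opposite strand.

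Col15a1 and Col18a1 encode collagens of the basement membrane zone that carry sugar chains, and Col18a1 is the source of endostatin. Col15a1 (chr4:47208161-47313167) had normalized read counts of 562 in the normal control heart, 798 in the normal exercise heart, 286 in the cancer control heart and 110 in the cancer exercise heart, and Col18a1 had 71.2, 103, 117 and 73.3. Col15a1 thus had lower counts in both cancer libraries than in both normal libraries, which was not so for Col18a1. An exon of Gm12426 overlaps Col15a1 on the opposite strand.

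Col4a3, Col4a4 and Col4a5 encode the type IV chains of specialized basement membranes such as that of the kidney filter. Col4a4 had normalized read counts of 73.2, 58.8, 45.8 and 24.2 in the normal control heart, the normal exercise heart, the cancer control heart and the cancer exercise heart, and Col4a5, on the X chromosome, had 28.7, 52.6, 39.8 and 11.1. Col4a3 had between 2 and 5 reads in a library, too few to order them, and an exon of C430014B12Rik overlaps it on the opposite strand.

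Among the other collagens, the type VI chains, which form beaded microfilaments around cells, kept close to each other. Col6a1 had normalized read counts of 211 in the normal control heart, 322 in the normal exercise heart, 328 in the cancer control heart and 82.2 in the cancer exercise heart. Col6a2 had 304, 407, 445 and 78.9, and Col6a3 had 274, 422, 434 and 68.0. For all 3 genes the normal exercise heart and the cancer control heart were close, the normal control heart was lower and the cancer exercise heart lowest. Col6a5 and Col6a6, chains that can take the place of the Col6a3 chain, followed neither this order nor each other. Col6a5 had 10, 11, 191 and 15 reads in the normal control heart, the normal exercise heart, the cancer control heart and the cancer exercise heart, and Col6a6 had 41, 35, 32 and 12, with an exon of Gm38314 on the opposite strand. The Col6a5 reads came mostly from the cancer control heart.

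Col13a1 and Col23a1 encode collagens that cross the cell membrane, and both were highest in the cancer control heart. Col13a1 had normalized read counts of 18.5, 12.5, 94.0 and 38.3 in the normal control heart, the normal exercise heart, the cancer control heart and the cancer exercise heart, and Col23a1 had 33.4, 45.1, 132 and 58.0. Both thus had higher counts in the 2 cancer libraries than in the 2 normal libraries.

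Col8a1, a short-chain collagen of vessel walls and valves, had normalized read counts of 698 in the normal control heart, 668 in the normal exercise heart, 437 in the cancer control heart and 254 in the cancer exercise heart. Its partner Col8a2 had 10, 20, 2 and 1 reads. Both were thus lower in the cancer libraries than in the normal ones, Col8a2 at the limit of detection. Col14a1 and Col16a1, collagens bound to the surface of fibers, had 149, 223, 115 and 72.3, and 110, 173, 213 and 106, respectively. Col12a1, of the same family as Col14a1, had 8, 10, 9 and 0 reads, Col26a1 had 1, 7, 15 and 0, and Col28a1 had 6, 2, 9 and 0. These last 3 genes had reads in all libraries except the cancer exercise heart, where a count of 0 allows up to 3 reads, or a normalized read count of 3.28.

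The make-up of the collagen reads differed between the libraries. Fibrillar collagens took 42.8% of the reads of all 44 collagen genes in the normal control heart (95% interval 41.8% to 43.8%), 51.4% in the normal exercise heart (50.6% to 52.1%), 65.6% in the cancer control heart (65.0% to 66.2%) and 34.8% in the cancer exercise heart (33.5% to 36.0%). Basement membrane collagens took 39.4%, 33.1%, 23.1% and 52.7% in the same order, so that they held the larger share only in the cancer exercise heart. Types I and III alone took 37.5%, 44.6%, 59.3% and 28.3%, and the Col4a1 and Col4a2 chains took 32.4%, 26.4%, 20.8% and 49.2%. The type VI chains Col6a1, Col6a2 and Col6a3 took 7.42%, 7.54%, 5.56% and 3.62%. The intervals of the fibrillar share did not overlap between any of the libraries.

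All collagen genes together took 0.141% of the reads of the normal control heart, 0.199% of the normal exercise heart, 0.258% of the cancer control heart and 0.050% of the cancer exercise heart. Leaving out the globin reads gave 0.154%, 0.217%, 0.280% and 0.080%, so the order of the libraries was the same and the cancer exercise heart stayed lowest. In a whole heart, fewer cells of a type and less RNA per cell cannot be told apart.

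**Figure D2:**
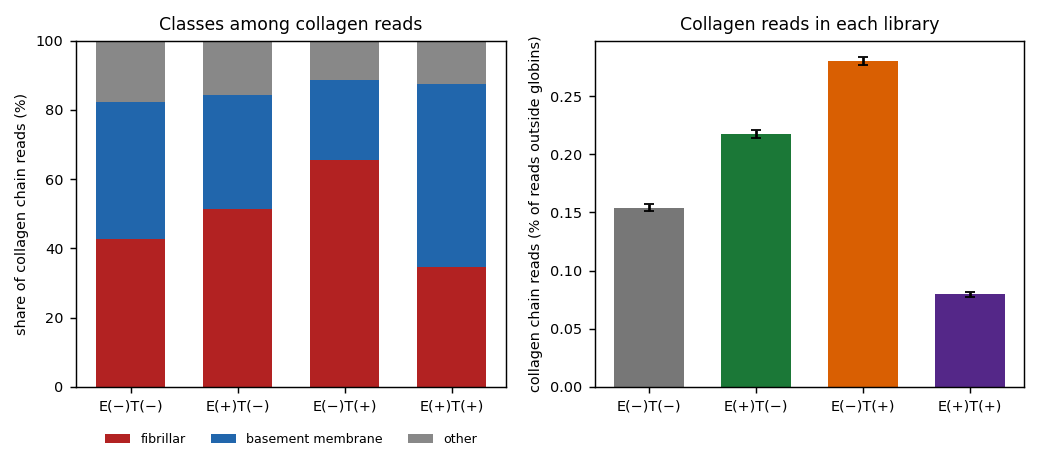
Left, the share (%) of collagen chain reads taken by the fibrillar, basement membrane and other classes in each library, as stacked bars. Right, collagen chain reads as a percentage of the reads outside globin genes, with 95% counting intervals as error bars; the bar of the cancer control heart is highest at 0.280% and that of the cancer exercise heart lowest at 0.080%.

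Ratios of chains within a library do not depend on how libraries were scaled. On the read scale, Col4a2 had 0.646 reads per Col4a1 read in the normal control heart, 0.628 in the normal exercise heart, 0.733 in the cancer control heart and 0.670 in the cancer exercise heart, and the ratio of Col6a3 to Col6a2 lay between 0.861 and 1.04. Col1a1 had 0.274, 0.363, 0.431 and 0.287 reads per Col1a2 read, and the interval in the cancer control heart, 0.413 to 0.451, lay above those of the other libraries. The ratio of Col4a2 to Col4a1 was also highest in the cancer control heart, where its interval, 0.693 to 0.775, lay above that of the normal exercise heart, 0.591 to 0.667. The spread was wider than for these pairs between Col4a1 of the basement membrane class and Col1a2, with 0.960, 0.730, 0.439 and 1.78 reads per Col1a2 read. Within the fibrillar class, the ratio of Col3a1 to Col1a2 lay between 0.420 and 0.733. Col5a2 and Col3a1, both fibrillar, are neighbors on chromosome 1 with 24614 bases between their 3′ ends. Their ratio also spread widely, at 0.148, 0.124, 0.097 and 0.336.

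**Figure D3:**
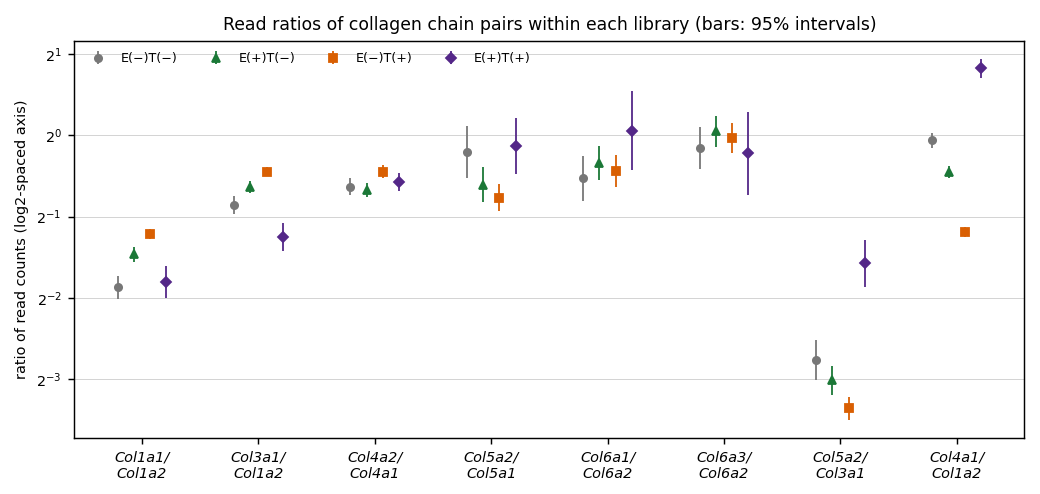
Ratio of read counts of pairs of collagen chain genes (log2-spaced axis) in the 4 libraries, with 95% counting intervals as bars. The Col4a2 to Col4a1 symbols lie between 0.628 and 0.733, while the Col4a1 to Col1a2 symbols spread from 0.439 to 1.78. Those of the fibrillar pair Col5a2 to Col3a1 spread from 0.097 to 0.336.

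Exercise in normal mice was addressed by normal exercise vs. normal control. All 8 fibrillar genes had a higher count in the exercise heart, as did 50.3% of all genes kept. This direction held with each other scaling tried, apart from Col11a1, which had too few reads to be kept once reads were subsampled. The fibrillar class had a median log2 fold change of 0.93 against 0.00 for all genes kept. With Col11a1 at its bound the median was 0.76. Col1a1 was 2.05-fold higher (log2 1.04, interval 0.89 to 1.19), Col5a3 2.06-fold higher (1.04, 0.74 to 1.37) and Col5a1 2.01-fold higher (1.004, 0.76 to 1.27). Col3a1 and Col1a2, at log2 fold changes of 0.86 and 0.64, stayed under the fold of 2, and their intervals lay above 0.

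Of all 29 members, 5 were called higher and 2 lower, and 22 had a higher count in the exercise heart, against 50.3% of all genes kept. An interval above 0 was found for 16 and one below 0 for 0. Intervals were not computed over all genes, so the 16 have no share beside them. Over all 13937 genes kept, 12.3% were called, 5.88% higher and 6.40% lower. Thus 5 of 29 higher, or 17.2%, compares with 5.88%, and 2 of 29 lower, or 6.90%, with 6.40%. The 2 called lower, Col28a1 and Col4a3, had means of 4.16 and 4.05, just over the mean limit. Their normalized read counts of 6.77 and 5.67 in the normal control heart helped lift them over it. These 2 calls are thus partly set by the selection. The intervals of 4 of the 7 calls included 0: Col11a1 (6 vs. 0 reads, a log2 interval that starts at -0.11), Col26a1 (7 vs. 1 reads), Col28a1 (2 vs. 6) and Col4a3 (2 vs. 5). At its bound Col11a1 was at least 1.58-fold higher, which is under the fold of 2. With a minimum of 4 in both libraries, 3 members were called higher and 0 lower, against 3.12% and 3.36% of all genes. With genes over 1% of a library left out of the scaling, 2 were called higher (Col11a1 and Col26a1) and 2 lower, or 6.90% each way, against 5.70% and 6.91% of all genes. Summed fibroblast markers were 24461 in the normal control heart and 27543 in the normal exercise heart, and pericyte and smooth muscle markers 5689 and 8719, of which 4 of 8 were called higher. These 4 were the smooth muscle genes Myh11, Tagln, Acta2 and Cnn1, while the pericyte genes Rgs5, Kcnj8, Abcc9 and Cspg4 had log2 fold changes between -0.44 and -0.09. The part of these markers in the result was not tested.

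In the basement membrane class 0 of 7 genes were called higher and 1 lower, with a median of 0.24. Col4a1, at 0.24 (0.16 to 0.33), and Col15a1, at 0.51 (0.35 to 0.67), were higher by less than the fold of 2. Of the remaining collagens, 1 of 14 was called higher and 1 lower, with a median of 0.42.

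Cancer without exercise was addressed by cancer control vs. normal control, which shares its control library with the comparison above. The 5 fibrillar chains with the most reads were all called higher. Col1a1 was 4.28-fold higher (log2 2.10, interval 1.96 to 2.24), Col3a1 3.62-fold (1.86, 1.76 to 1.95), Col5a1 3.52-fold (1.81, 1.58 to 2.06), Col1a2 2.72-fold (1.45, 1.37 to 1.52) and Col5a2 2.38-fold (1.25, 0.99 to 1.53). Col11a1 was at least 7.44-fold higher, with 29 vs. 0 reads. The remaining 2 fibrillar genes, Col5a3 at 0.06 and Col27a1 at 0.05, had intervals that included 0, and both turned to below 0 when the libraries were scaled to their total reads or to those outside the most abundant genes. The fibrillar median was 1.63, against -0.01 for all genes kept. Summed fibroblast markers were 24461 in the normal control heart and 47455 in the cancer control heart, with 3 of 8 called higher against 14.6% of all genes, and their part in the result was not tested.

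Over all 29 members, 10 were called higher (34.5%) and 1 lower (3.45%), against 14.6% and 13.1% of the 14317 genes kept, or 27.6% in either direction. The 10 include Col11a1 and Col26a1, which met the mean limit only through the cancer control heart, so these calls are partly set by the selection. Besides the fibrillar genes, Col6a5 was 13.4-fold higher (log2 3.74, 2.97 to 4.96), Col13a1 4.86-fold (2.28, 1.58 to 3.21), Col23a1 3.86-fold (1.95, 1.40 to 2.61) and Col26a1 6.38-fold (2.67, 0.83 to 8.92, 15 vs. 1 reads). Col8a2 was the member called lower, at 2 vs. 10 reads, with a log2 interval from -5.93 to -0.47. Of the 7 basement membrane genes 0 were called, with a median of 0.32. Col15a1 came closest, at -0.97 (-1.18 to -0.77), while Col4a2, at 0.50 (0.40 to 0.60), and Col18a1, at 0.71 (0.28 to 1.18), were on the other side of 0. The type VI chains Col6a1, Col6a2 and Col6a3 lay between 0.55 and 0.66, and none of them was called.

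Exercise in cancer-bearing mice was addressed by cancer exercise vs. cancer control, which shares no library with the comparison in normal mice. Of the 28 members kept, 28 had a lower count in the cancer exercise heart and 0 a higher one, while 49.1% of all genes kept had a higher one. Every member kept was lower with each other scaling tried as well. The members called numbered 19 lower (67.9%) and 0 higher, against 10.0% and 9.39% of the 14363 genes kept, or 19.4% in either direction. The 19 include Col11a1, Col26a1 and Col28a1, which met the mean limit only through the cancer control heart, so these calls are partly set by the selection. The log2 intervals of 27 of the 28 lay below 0, Col4a3 being the exception, and no share of all genes was computed for intervals.

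Fibrillar genes had a median log2 fold change of -2.23, and 7 of 8 were called lower. Col3a1 was 9.89-fold lower (log2 -3.31, -3.46 to -3.16), Col1a1 8.50-fold (-3.09, -3.28 to -2.91), Col1a2 5.66-fold (-2.50, -2.60 to -2.41), Col5a1 4.43-fold (-2.15, -2.42 to -1.90), Col5a2 2.86-fold (-1.52, -1.81 to -1.25) and Col5a3 2.16-fold (-1.11, -1.59 to -0.68). Col27a1, at -0.72 (-1.45 to -0.07), was the 1 fibrillar gene not called. Summed fibroblast markers were 47455 in the cancer control heart and 33901 in the cancer exercise heart, with 1 of 8 called lower and 0 higher against 10.0% and 9.39% of all genes, and their part in the result was not tested.

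The type VI chains were called lower together. Col6a3 was 6.31-fold lower (-2.66, -3.08 to -2.29), Col6a2 5.58-fold (-2.48, -2.87 to -2.14) and Col6a1 3.96-fold (-1.98, -2.38 to -1.64). Of the 13 other collagens kept 10 were called lower, with a median of -1.99, or -1.28 with the genes at 0 reads at their bounds. Col6a5 was 9.71-fold lower (-3.28, -4.23 to -2.60), and Col26a1, with 0 vs. 15 reads, at least 4.03-fold lower. Col12a1 and Col28a1, each with 0 vs. 9 reads, were at least 2.42-fold lower.

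Basement membrane genes differed less: 2 of 7 were called lower, Col15a1 at -1.38 (-1.72 to -1.06) and Col4a5 at -1.75 (-3.01 to -0.85), and the class median was -0.67. Col4a1 was 1.40-fold lower (-0.49, -0.58 to -0.40) and Col4a2 1.53-fold lower (-0.62, -0.72 to -0.51). The intervals of both lay above those of Col1a1, Col1a2 and Col3a1. When libraries were scaled to their total reads, so that the globin reads of the cancer exercise heart counted, the median of all genes kept moved to -0.60, and 27 members were called lower against 25.6% of all genes.

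**Figure D4:**
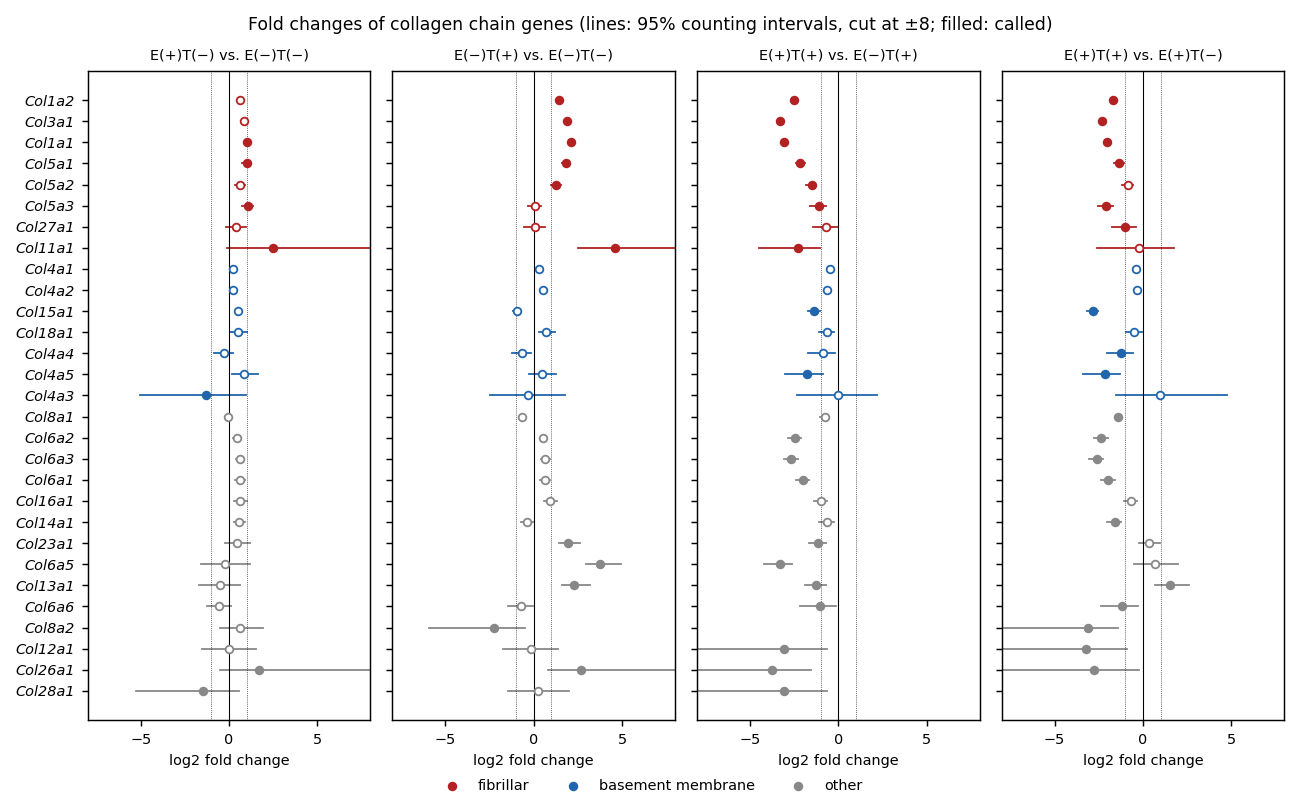
Log2 fold changes of the 29 collagen chain genes in the 4 comparisons, with 95% counting intervals as lines, cut at ±8. Filled points were called, open points were kept but not called, and dotted lines mark the fold of 2; in cancer exercise vs. cancer control all points lie at or left of 0, and Col4a1 and Col4a2 lie near -0.49 and -0.62.

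Cancer with exercise was addressed by cancer exercise vs. normal exercise. Of the 28 members kept 18 were called lower (64.3%) and 1 higher, against 11.1% and 12.0% of the 14289 genes kept, or 23.0% in either direction. The gene called higher was Col13a1, 2.91-fold (log2 1.54, 0.66 to 2.60), which was not called once libraries were scaled to their total reads. Among those called lower, Col15a1 was 7.23-fold lower (-2.85, -3.18 to -2.57), Col6a3 6.13-fold (-2.61, -3.04 to -2.25), Col3a1 4.95-fold (-2.31, -2.47 to -2.16) and Col5a3 4.28-fold (-2.10, -2.55 to -1.71). The class medians were -1.52 for fibrillar genes, with 6 of 8 called lower, -0.49 for basement membrane genes, with 3 of 7, and -1.61 for the others, with 9 of 13.

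Set side by side, the 2 exercise comparisons went in opposite directions for the fibrillar class. All 8 fibrillar genes were higher in normal exercise vs. normal control and lower in cancer exercise vs. cancer control, as were 21 of the 28 members kept in both, against 25.2% of all genes kept in both. Col3a1 had log2 fold changes of 0.86 and -3.31, and Col1a2 of 0.64 and -2.50. Members called in opposite directions numbered 5, namely Col1a1, Col5a1, Col5a3, Col11a1 and Col26a1, or 5 of 28, against 2.12% of the 13390 genes kept in both. All 5 were called higher in the first and lower in the second, a pattern of 1.05% of all genes. Of these, Col11a1 and Col26a1 met the mean limit only through the cancer control heart, and the bound of Col11a1 in the first comparison was under the fold of 2. The 5 became 2 to 3 under 5 of the 7 alternatives tried, among them 2 with genes over 1% of a library left out of the scaling, Col11a1 and Col26a1, whose calls in the first comparison rest on 6 vs. 0 and 7 vs. 1 reads. Basement membrane genes called in opposite directions numbered 0 of 7.

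**Figure D5:**
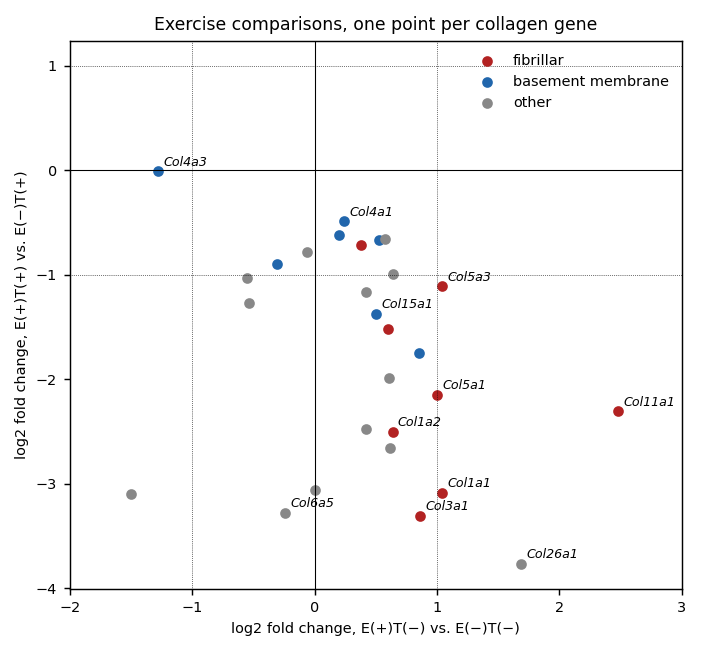
Log2 fold change of each collagen chain gene in normal exercise vs. normal control (horizontal axis) and in cancer exercise vs. cancer control (vertical axis), colored by class, with dotted lines at the fold of 2. All 8 fibrillar points lie below and to the right of the origin, and Col4a1 lies near the origin at 0.24 and -0.49.

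Genes that make and cross-link collagen were read from a list of 31. In normal exercise vs. normal control 5 of the 28 kept were called higher and 0 lower, in cancer control vs. normal control 10 of 29 higher and 3 lower, in cancer exercise vs. cancer control 2 of 30 higher and 10 lower, and in cancer exercise vs. normal exercise 3 of 30 higher and 6 lower. The shares of all genes called higher and lower were 5.88% and 6.40%, 14.6% and 13.1%, 9.39% and 10.0%, and 12.0% and 11.1% in the same order. Fkbp10, a folding helper of procollagen, had log2 fold changes of 1.22, 2.88, -1.93 and -0.26 in these comparisons. Adamts2, which cuts the amino end of procollagen, had 1.23, 2.64, -1.75 and -0.34. Both had the cancer control heart highest and the normal control heart lowest, with 229 and 23 reads of Fkbp10. Loxl2, a relative of Lox, had 1.11, 1.44, -2.17 and -1.84. Lox itself, an enzyme that cross-links collagen, had 0.78, 3.75, -1.02 and 1.96, so that it was called higher in both cancer hearts against their exercise-matched normal hearts.

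Other members of the list followed different orders. Serpinh1, the collagen chaperone that is also a heat shock protein, had log2 fold changes of 1.26, -1.11, -0.62 and -2.98 in the same order of comparisons. P4ha1, a subunit of the enzyme that hydroxylates proline, had 0.89, -2.66, 0.79 and -2.76. Both thus had lower counts in the cancer library than in the normal library of each such comparison, unlike Fkbp10, Adamts2 and Lox in the hearts without exercise. Of 9 collagen receptor genes, 0 of 7 kept were called in normal exercise vs. normal control (12.3% of all genes in either direction), 2 of 7 lower in cancer control vs. normal control (13.1%), 1 of 6 lower in cancer exercise vs. cancer control (10.0%) and 2 of 7 lower in cancer exercise vs. normal exercise (11.1%). With 6 or 7 genes kept, no difference from the shares of all genes can be read from these counts.

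Markers of the cell types that a heart sample can hold differed between the libraries as well. All 8 fibroblast markers, such as Pdgfra, Tcf21 and Dcn, had reads in each library, with summed normalized read counts of 24461 in the normal control heart, 27543 in the normal exercise heart, 47455 in the cancer control heart and 33901 in the cancer exercise heart. Called in the order of the comparisons above were 0 of 8, 3 of 8 higher (14.6% of all genes kept), 1 of 8 lower (10.0% of all genes kept) and 0 of 8. Dcn made up most of each sum, with 20423, 22489, 40453 and 29409, and the other 7 markers did not all follow its order: Pdgfra, Tcf21, Lum and Ddr2 had lower counts in the cancer exercise heart than in the normal control heart.

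Pericyte and smooth muscle markers summed to between 5689 and 8719, highest in the normal exercise heart, where the 4 smooth muscle genes among the 8 were called higher against the normal control heart (5.88% of all genes kept) and the 4 pericyte genes were not called. Endothelial markers summed to between 7070 and 9159, with 2 of 7 called lower in cancer control vs. normal control (13.1% of all genes kept). Macrophage markers summed to between 2527 and 5572, highest in the cancer control heart. In cancer control vs. normal control, 4 of these 6 were called higher (14.6% of all genes kept). The other 2, Adgre1 and Csf1r, had log2 fold changes of -0.37 and -0.11. Mesothelial markers summed to between 233 and 374, and Schwann cell markers to between 137 and 364. Erythroid markers summed to 2644490 in the cancer exercise heart and to between 382703 and 401592 elsewhere.

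Markers of tissues next to the heart varied too. Adipocyte markers summed to 2026 in the normal control heart, 526 in the normal exercise heart, 434 in the cancer control heart and 2582 in the cancer exercise heart, with Lep at 0 in all but the normal control heart and Plin1 at 0 in the cancer control heart. Lung epithelial markers had reads in each library, 5 of 5, with sums of 614, 166, 549 and 1806. Markers of cartilage and valve summed to 350, 516, 92.0 and 139, with Matn1 at 0 in all and Acan and Chodl at 0 in the normal control heart and the cancer control heart. Skeletal muscle markers summed to between 11298 and 24695, nearly all of it from Ckm and Acta1, which heart muscle also expresses, while Myh4 had 0 to 3 reads and Tnnt3 1 to 10 reads in a library. The part of these cell types, of the globin share and of the piece of heart sampled in the collagen results was not tested.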

How the data were processed

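The heart mRNA-seq data of the 4 groups were analysed, with 1 library each. The authors made QuantSeq libraries, and Bowtie2, Bedtools and mm10 are named in the submitters' processing notes. Per the methods, the authors applied the quantile normalization of edgeR to the read counts. What they deposited is on a log2 scale, with 1 value per gene and library. Whole reads were recovered by inverting the normalization, modelled as a quantile adjustment of negative binomial counts with a common dispersion of 0.149. Put through that adjustment, the whole reads gave log2 values (with 1 added) within 0.000524 of those deposited. Before rounding, 100% of 25460 values from 5 to 99 reads fell within 0.1 of a whole number. The recovery was tested on simulated data.

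Fold changes are differences of the deposited log2 values, that is with a pseudocount of 1, so that changes of genes with few reads come out too small. A DEG was a gene with a fold change of 2 or more and 4 or more normalized reads in either library. With 1 library per group no test of a condition is possible, and the count test of the recovered reads was not run. Intervals (95%) are for recovered reads. Against 0 reads, a bound was computed with 3 reads as the floor and is given as "at least" or "at its bound". Calls and the other fold changes and medians used the deposited values without this floor. Where a symbol stood on more than 1 line, the line of highest mean was taken. Gene positions come from GENCODE annotation of GRCm38 and promoter sequences from RefSeq for GRCm38.p6. Whether counting used strand is not given in the sources used here.

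The members and gene lists were chosen with earlier results of these data known. Every collagen gene averaging 4 or more was named, and of the other lists up to 4 genes with the largest change in a comparison among those averaging 16 or more. Alternatives covered the scaling, the count minimum, the pseudocount, the depth, the mean limit and the class of types XV and XVIII. Tools were matplotlib 3.10.9, pandas 2.3.3, scipy 1.17.1, numpy 2.4.6 and Python 3.11.15.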

Additional observations from a re-analysis of the deposited data

Results flagged for a closer look

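For several collagen genes the exercised heart differed from the heart without exercise in opposite directions in the normal and the cancer-bearing libraries. With 1 library per group, neither an effect of exercise nor a difference between such effects was tested. The log2 fold changes in normal exercise vs. normal control and in cancer exercise vs. cancer control were 1.04 and -3.09 for Col1a1, 1.004 and -2.15 for Col5a1, 1.04 and -1.11 for Col5a3, 2.48 and -2.31 for Col11a1, and 1.69 and -3.77 for Col26a1. The medians of the 8 fibrillar genes were 0.93 and -2.23. The first value of Col11a1 stands on 6 vs. 0 reads and that of Col26a1 on 7 vs. 1, and the second of Col26a1 on 0 vs. 15, so these fitted values are no bounds.

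Some collagen genes under the mean limit of 4 had more than 3 reads in another library, against 0 reads in the normal control heart. In the normal exercise heart these were Col19a1 with 9 reads, Col9a3 with 7, Col2a1 with 5 and Col9a2 with 4, and in the cancer control heart Col10a1 with 8 and Col9a1 with 4. Col2a1, Col9a1, Col9a2, Col9a3 and Col10a1 are collagens of cartilage. Col9a3, Col2a1 and Col9a2 had 0 reads in the other 3 libraries, and Chad, a cartilage marker, had 91 reads in the normal exercise heart, 1 in the normal control heart, 2 in the cancer control heart and 15 in the cancer exercise heart. The summed cartilage and valve markers were mostly Sox9, with normalized read counts of 349 of 516 in the normal exercise heart and 332 of 350 in the normal control heart. Sox9 had a log2 fold change of 0.07 between these hearts, so the sum hides the other markers. Of the 4 markers kept, 3 were called higher in normal exercise vs. normal control, against 5.88% of all genes. These were Chad, Comp (78 vs. 14 reads, log2 2.06) and Chodl (11 vs. 0 reads). The part of sampled cartilage or valve was not tested.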

How the results depend on the processing

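Of 63 recounts of called members, 43 lay within 1.5 times the reported count and 20 did not, each of the latter involving a count of 5 or fewer. Members called higher in normal exercise vs. normal control, 5 as reported, numbered 2 with genes over 1% of a library left out of the scaling, 3 with a pseudocount of 4, 2 after subsampling to the smallest library, 3 with a minimum of 16 and 3 with a minimum of 4 in both libraries. Those called lower there, 2 as reported, numbered 0, 1, 0 and 0 with the pseudocount, subsampling and the 2 minimums. Members called in opposite directions, 5 as reported, numbered 2, 3, 2, 3 and 3 under the 5 alternatives named first. The 1 member called lower in cancer control vs. normal control became 2 with scaling to library size, with the abundant genes left out and after subsampling, and 0 with either minimum, and the 1 called higher in cancer exercise vs. normal exercise became 0 with scaling to library size. The median of fibrillar genes in cancer control vs. normal control, relative to all genes, was 1.64 and moved to 1.46 among genes averaging 16 or more. The cause of these shifts was not tested. The other 67 recomputed class medians lay between the medians of the lower and upper interval ends of their genes, which are not intervals of a class median. The 16 shares lay within their counting intervals. Rescaling could hardly move medians taken relative to all genes. The shares were recomputed from the normalized form of the same reads, so neither outcome is an independent check. Of 456 fold changes of single genes recomputed under 4 alternatives, 397 lay within their intervals, 59 did not, and no called one changed sign. A call needs a fold of 2, and the scalings moved the median of all genes by less than that, so a change of sign was hardly possible. Scaling to library size moved the median of all genes to -0.17 in cancer control vs. normal control, -0.60 in cancer exercise vs. cancer control and -0.74 in cancer exercise vs. normal exercise. No paired analysis was possible because each group has 1 library. Depth limits the genes with under 10 reads, and replicate error is unknown.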
